A study of Homo sapiens with 6 samples.

Results

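The genes of the HOPS tethering complex, of the small GTPase RAB7A and of its fusion adaptor PLEKHM1 were followed in the RNA of H460 cells, a human lung cancer line established from a large cell carcinoma. The members are the 8 rows of the deposited count table with these symbols, out of 31762 genes. They comprise 6 HOPS subunits (VPS11, VPS16, VPS18, VPS33A, VPS39 and VPS41), RAB7A and PLEKHM1. None of these symbols was repeated in the table, and 8 of 8 members passed the filter on low counts. Total RNA was sequenced from 3 control libraries and from 3 libraries of cells exposed to 20 µM fluoxetine, an inhibitor of serotonin reuptake, for 24 h. Both groups carry the genotype label WT and were grown in the same serum-containing RPMI-1640 medium, the control vehicle is not given in the sources used here, and all libraries come from 1 cell line. Nothing states that the libraries were separate cultures, so the p-values measure the spread between these libraries, which may be technical. Between 16157507 and 27823667 reads were counted per library, and every fluoxetine library was shallower than every control library. Of the epithelial markers, KRT8, KRT18 and KRT19 together gave nearly all of the summed level, which was 3050 to 4020 CPM in control cells and 2680 to 3270 CPM after fluoxetine, whereas EPCAM was at most 0.573 CPM and CDH1 at most 0.0607 CPM. KRT18 fell from 511.5 to 311.6 CPM on average (edgeR, adjusted p = 0.00162), and the part of this shift in the results for the members was not tested. The fibroblast markers summed to 7.57 to 10.0 CPM in control and 7.81 to 8.50 CPM in fluoxetine libraries, mostly from COL1A1 and PDGFRB. The leukocyte marker PTPRC and the sum of the endothelial markers PECAM1 and VWF stayed at or below 0.182 CPM, and CD3E, CD68 and CDH5 were not in the table used.

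HOPS is a tether that holds late endosomes, autophagosomes and lysosomes together before their membranes fuse. Its core subunits are shared with CORVET, the tether of early endosomes, and VPS39 and VPS41 replace the CORVET subunits TGFBRAP1 and VPS8 at the ends of the complex. RAB7A marks late endosomes and lysosomes, recruits HOPS there, and binds PLEKHM1, which also carries a binding site for the LC3 family of autophagosome proteins. The comparison asked whether the RNA of this fusion machinery differed between fluoxetine-treated and control cells, in a study that examined autophagy under this drug.

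After fluoxetine treatment 5 of the 8 genes rose past the threshold, namely VPS41, VPS18, VPS11, PLEKHM1 and RAB7A, with folds between 1.36 and 1.57. VPS39, VPS33A and VPS16 did not pass, at folds of 1.24, 1.21 and 1.14. A gene was called at an adjusted p under 0.05 from edgeR's quasi-likelihood test, adjusted over all 15646 tested genes, and by this rule 7.76% of all tested genes were called higher. At an unadjusted p under 0.05, 7 of the 8 genes were higher, as were 15.8% of all tested genes. By edgeR 0 of the 8 were called lower, beside 5.32% of all tested genes, and the count was also 0 at an unadjusted p under 0.05 (12.9% of all tested genes) and with DESeq2 (7.53% of its tested genes). A fold of 2 was reached by 0 of the 8 genes and, among the called, by 1.25% of all tested genes in the higher direction. The median log2 fold change was 0.51 over the 8 members and 0.03 over all tested genes. The control and fluoxetine libraries did not overlap for any of the 8 genes, with fluoxetine higher, a pattern shared by 17.5% of all tested genes. With all libraries thinned to the depth of the shallowest, 5 of the 8 genes rose as well. In bulk RNA, more cells with a transcript and more transcript per cell cannot be told apart.

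**Figure D1:**
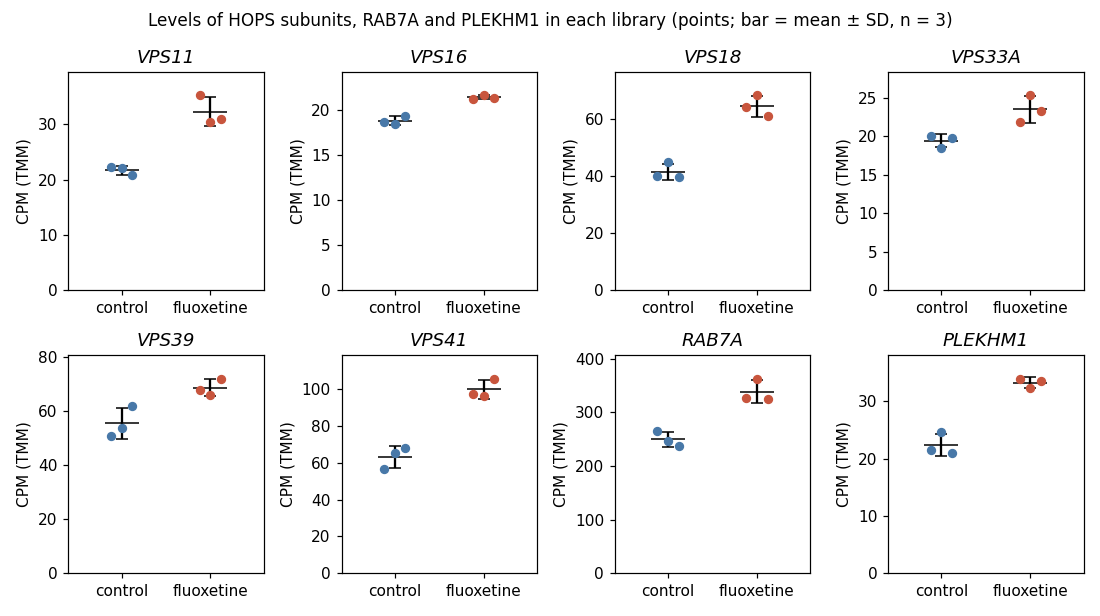
Level of each of the 8 genes in CPM after TMM normalization, with 1 panel per gene and an axis that starts at 0. Points are the 3 control and 3 fluoxetine libraries and the bars show the mean ± SD. The points of the groups are separated in every panel, narrowly for VPS16 (19.4 CPM in the highest control and 21.3 CPM in the lowest fluoxetine library) and widely for VPS41 (68.0 and 96.4 CPM).

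Among the core subunits, VPS18 and VPS11 rose and VPS16 and VPS33A did not pass the test. VPS18 (ENSG00000104142, chromosome 15, 40894430 to 40903975, plus strand) encodes a core scaffold protein with a RING finger. Levels are given in CPM, the counts of a gene scaled to a common library size after TMM normalization. VPS18 was at 40.0, 44.7 and 39.8 CPM in control replicates 1, 2 and 3 and at 64.0, 68.2 and 60.9 CPM in the fluoxetine replicates. The groups were far apart, since the lowest fluoxetine library exceeded the highest control library by more than the whole range of either group. This amounted to a log2 change of 0.64 with a standard error of 0.0875 (edgeR, adjusted p = 0.00152).

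VPS11 (ENSG00000160695, chromosome 11, 119067692 to 119081978, plus strand) encodes the second RING-finger scaffold of the core. Its level was 22.2, 22.04 and 20.8 CPM in control cells and 35.3, 30.5 and 31.0 CPM after fluoxetine treatment, highest in fluoxetine replicate 1. VPS11 rose by 0.57 on the log2 scale with a standard error of 0.0985 (edgeR, adjusted p = 0.00486). Leaving out fluoxetine replicate 1 gave 0.48 and ended the call (edgeR, adjusted p = 0.0563). An antisense gene, AP003392.6, overlaps 7 exonic bases of VPS11 and had a mean count of 4.67 per library.

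VPS33A (ENSG00000139719, chromosome 12, 122229564 to 122266521, minus strand) encodes the Sec1/Munc18 protein of the complex, which binds the SNARE proteins that drive fusion. It was at 20.1, 18.5 and 19.8 CPM in control cells and at 21.9, 25.3 and 23.2 CPM after fluoxetine. Its log2 change of 0.27 (95% interval 0.05 to 0.50) did not pass, although the groups did not overlap (edgeR, adjusted p = 0.105). VPS16 (ENSG00000215305, chromosome 20, 2840703 to 2866732, plus strand) encodes the subunit that holds VPS33A in the complex. Its levels were 18.6, 18.5 and 19.4 CPM in control cells and 21.3, 21.7 and 21.4 CPM after fluoxetine, the smallest difference among the 8 genes. VPS16 thus differed by 0.18 on the log2 scale (95% interval -0.02 to 0.39), which did not pass (edgeR, adjusted p = 0.226). PTPRA overlaps the 3′ part of VPS16 on the same strand by 558 exonic bases and had a mean count of 1516 per library with a log2 change of 0.03 (edgeR, adjusted p = 0.823), so the count of VPS16 is uncertain there. PCED1A, on the other strand, overlaps the span of VPS16 but none of its exonic bases (0) and had a mean count of 181.17 per library. AC048338.2 lies within VPS33A on the same strand, also with 0 exonic bases shared, and had a mean count of 0.33.

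Of the subunits that distinguish HOPS from CORVET, VPS41 rose and VPS39 did not pass the test. VPS41 (ENSG00000006715, chromosome 7, 38722963 to 38932394, minus strand) contacts the RAB7A effector RILP, and its log2 change was nearly equal to that of VPS18. VPS18 had the larger value without control replicate 1, control replicate 2 or fluoxetine replicate 3. The level of VPS41 was 56.6, 65.2 and 68.0 CPM in the control replicates and 97.1, 96.4 and 105.6 CPM in the fluoxetine replicates. VPS41 rose by 0.66 on the log2 scale with a standard error of 0.0887 (edgeR, adjusted p = 0.00137). VPS39 (ENSG00000166887, chromosome 15, 42158701 to 42208316, minus strand) encodes the subunit at the other end of the tether. It was at 50.9, 53.6 and 61.9 CPM in control cells and at 68.0, 66.0 and 72.1 CPM after fluoxetine, with control replicate 3 closest to the treated libraries. The log2 change of VPS39, 0.31 (95% interval 0.10 to 0.51), just missed the threshold (edgeR, adjusted p = 0.0522). Leaving out control replicate 3 gave 0.36 and a call (edgeR, adjusted p = 0.00976), whereas leaving out any other library gave no call.

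RAB7A (ENSG00000075785, chromosome 3, 128726122 to 128814796, plus strand) rose as well. Its level was 265, 247.3 and 236.6 CPM in control cells and 327.2, 363.1 and 324.6 CPM after fluoxetine treatment, so that fluoxetine replicate 2 was the highest library. RAB7A rose by 0.44 on the log2 scale with a standard error of 0.0758 (edgeR, adjusted p = 0.00497). The 3 processed pseudogenes that lie in RAB7A on the other strand overlap none of its exonic bases (0) and had mean counts of at most 1.33 per library.

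PLEKHM1 (ENSG00000225190, chromosome 17, 45435900 to 45490749, minus strand) was at 21.5, 24.7 and 21.0 CPM in control cells and at 34.0, 32.3 and 33.6 CPM after fluoxetine. The treated libraries lay close together and well above the controls. PLEKHM1 rose by 0.57 on the log2 scale with a standard error of 0.099 (edgeR, adjusted p = 0.00494). Leaving out fluoxetine replicate 1 gave 0.53 and ended the call (edgeR, adjusted p = 0.0548). An antisense gene, AC091132.2, overlaps 151 exonic bases of PLEKHM1 and had a mean count of 0.67 per library.

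Because PLEKHM1 has a transcribed pseudogene, PLEKHM1P1, on the same chromosome from 64779259 to 64837154, its coding sequence was compared with the pseudogene transcripts of GENCODE release 29. Coding bases 1513 to 1572 of PLEKHM1 and the matching stretch of the pseudogene are printed 5′ to 3′ with the 3 bases that differ in capitals. The stretch was chosen as a similar one that holds differences, and it is not the closest. Counted from 1 at the first printed base of PLEKHM1, the differences are C39T, G44A and A60G.
PLEKHM1: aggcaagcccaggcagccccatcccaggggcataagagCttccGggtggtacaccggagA
PLEKHM1P1: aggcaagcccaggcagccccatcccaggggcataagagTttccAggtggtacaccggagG
Of the 5114 windows of 150 bases, the read length, in the PLEKHM1 transcript with the longest coding part, 7.02% occurred without a mismatch in a PLEKHM1P1 transcript, and all of these were coding windows, of which they made up 11.9%. PLEKHM1P1 itself was at 5.85, 4.79 and 5.48 CPM in control cells and at 6.31, 4.52 and 6.41 CPM after fluoxetine, and its groups overlapped (log2 fold change 0.09, edgeR, adjusted p = 0.760). With the counts of both genes added, the log2 change of PLEKHM1 was 0.49 and stayed past the threshold.

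The levels of the 8 genes were compared with each other only per kilobase of exon, as CPM divided by the length of all annotated exons. RAB7A stood at 91.9 ± 5.25 CPM per kb (SD, n = 3) in control cells, far above all HOPS subunits. These subunits followed in the order VPS18 (10.2 ± 0.667 CPM per kb), VPS41 (8.11 ± 0.761), VPS39 (6.64 ± 0.677), VPS16 (5.6 ± 0.14), VPS11 (3.67 ± 0.131) and VPS33A (2.60 ± 0.112), all with the SD over 3 libraries. PLEKHM1 was lowest at 2.42 ± 0.216 CPM per kb. The library ranges of VPS41 and VPS39 overlapped, as did those of VPS33A and PLEKHM1, and the other neighbours in this order were separated. After fluoxetine treatment the order was the same except that PLEKHM1, at 3.61 ± 0.0945 CPM per kb (SD, n = 3), stood above VPS33A at 3.14 ± 0.227 CPM per kb (SD, n = 3), and no neighbours overlapped. The exon lengths cover all annotated transcripts, between 2717 bases for RAB7A and 9233 bases for PLEKHM1, and unused exons lower a value. VPS16 shares 558 exonic bases with PTPRA on the same strand, so its value and its place in the order are uncertain.

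**Figure D2:**
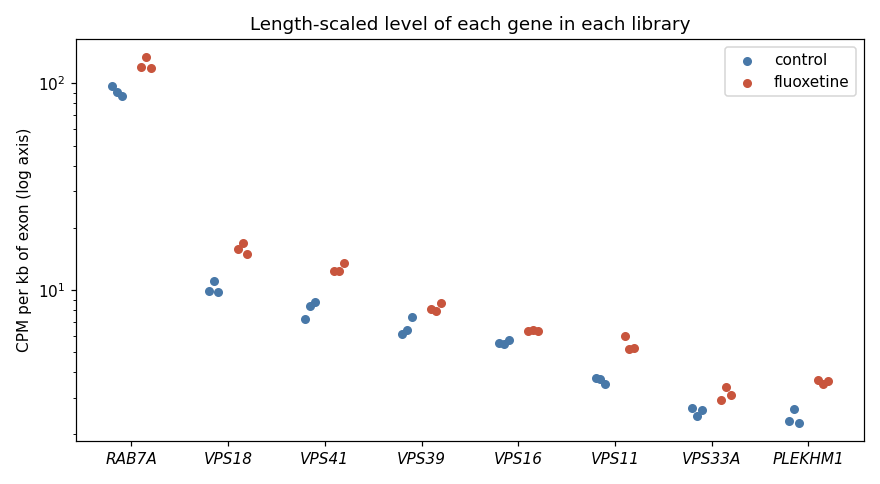
CPM per kilobase of annotated exon on a log axis, for the 8 genes ordered by their control mean, with 1 point per library. RAB7A lies near 91.9 in control cells and 124 after fluoxetine, whereas the other genes lie between 2.27 and 16.8.

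The proportions of the HOPS subunits to each other were examined next, with the pairs chosen after the values of the genes were seen. A ratio of 2 genes within a library hardly depends on how libraries are scaled, so the log2 ratios of all 15 pairs of subunits were compared. In 8 of 15 pairs the groups did not overlap, and each of these pairs set VPS41, VPS18 or VPS11 against VPS39, VPS33A or VPS16. This is the division into called and not called subunits given above, so it describes the same values in another form. How often pairs of other genes separate was not computed. The log2 ratio of VPS16 to VPS18 was -1.10, -1.27 and -1.03 in control cells and -1.59, -1.65 and -1.51 after fluoxetine, a shift of -0.45. That of VPS39 to VPS41, the HOPS-specific subunits, was -0.15, -0.28 and -0.14 in control cells and -0.51, -0.55 and -0.55 after fluoxetine, a shift of -0.35. For each of the 8 pairs the two-sided exact permutation test gave p = 0.1, the smallest value that 3 libraries against 3 allow, and 0.188 after adjustment over the 15 pairs, so no pair could reach the threshold. The log2 ratio of VPS16 to VPS33A, which bind each other, shifted by -0.09 with overlapping groups (p = 0.2 and adjusted p = 0.273 by the same exact test).

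**Figure D3:**
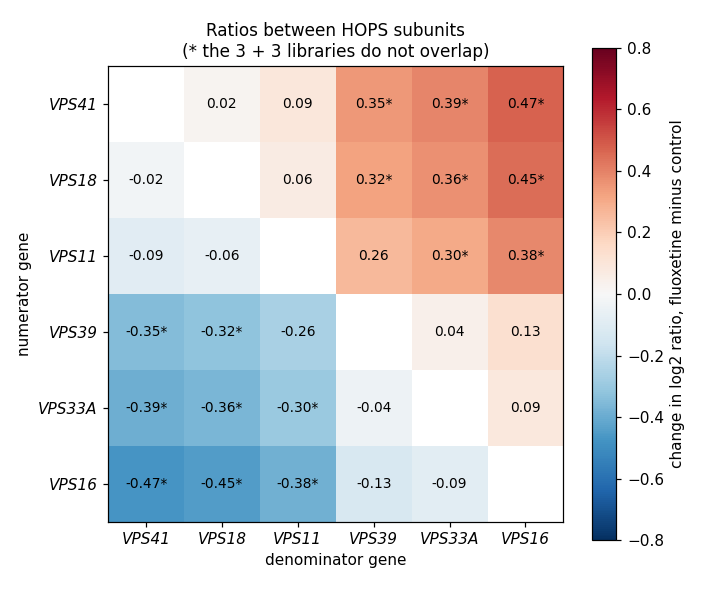
Change in the log2 ratio of each pair of HOPS subunits, fluoxetine minus control, with the numerator gene in rows and the denominator gene in columns. An asterisk marks the 8 pairs whose control and fluoxetine libraries do not overlap, and the values are largest between VPS16 and VPS41, with a change of -0.47.

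The promoters of the members were read from the RefSeq windows on GRCh38.p14, which span 250 bases before to 50 bases after a transcription start and held 6 of the 8 members, without VPS18 and VPS33A. They were searched for CACGTG, the E-box at the centre of the CLEAR element of lysosomal genes, and for its extension TCACGTGA, which contains it. A longer form of 10 bases, which extends TCACGTGA by a base on each side, was searched as well. All of these motifs read the same on either strand. The form of 10 bases occurred in 0 windows of the members, against 0.353% of all 35116 windows. The windows of 2 members, VPS11 and VPS16, held CACGTG, and those of RAB7A, VPS39, VPS41 and PLEKHM1 did not, against 7.26% of all 35116 windows. The following stretches of 30 bases show the matches in capitals, for VPS11 (chr11:119067761-119067790) and VPS16 (chr20:2840667-2840696), both on the plus strand.
VPS11: cCACGTGattcgctggctcagctCACGTGa
VPS16: cggcggcctcgcCACGTGacccggacgggc
In VPS11, a gene that rose, the matches begin 56 and 34 bases before the first of its RefSeq starts and the second is part of TCACGTGA, a form found in 0.980% of all windows, whereas in VPS16, which did not pass, the match begins 66 bases before its start. Both matches of VPS11 lie in an exon of VPS11 in GENCODE release 29, whose gene begins further upstream. The match of VPS16 lies outside the annotated exons of VPS16. It is within the span of PCED1A on the other strand, whose exons were not compared with the match. For comparison, 120 bases upstream of the start and outside the annotated exons of the same gene are given for VPS41 (chr7:38909230-38909349, minus strand), which rose without a match. A like stretch is given for RAB7A (chr3:128726002-128726121, plus strand). Neither stretch holds any of these motifs. The RefSeq start of VPS41 lies inside the longer GENCODE span of the gene.
VPS41: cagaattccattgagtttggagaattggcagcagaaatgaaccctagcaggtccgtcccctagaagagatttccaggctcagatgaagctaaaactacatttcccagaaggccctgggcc
RAB7A: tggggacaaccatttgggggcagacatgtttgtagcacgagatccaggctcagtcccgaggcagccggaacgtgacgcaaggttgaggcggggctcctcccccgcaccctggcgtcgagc
A match describes the letters of the window alone, and binding of a factor was not measured.

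Of the HOPS counterparts in the related tethers, VPS8 rose and TGFBRAP1, VPS33B and VIPAS39 did not pass. VPS8, the CORVET counterpart of VPS41, was at 15.2, 16.4 and 20.8 CPM in control cells and at 27.0, 23.6 and 28.8 CPM after fluoxetine, and it rose by 0.59 on the log2 scale with a standard error of 0.135 (edgeR, adjusted p = 0.0177). Its call was lost without control replicate 1 or 2 or fluoxetine replicate 1 or 3, with edgeR adjusted p-values up to 0.103. TGFBRAP1, the CORVET counterpart of VPS39, had a log2 change of 0.25 (95% interval 0.08 to 0.42 and, by edgeR, adjusted p = 0.0609). VPS33B and VIPAS39, which form the CHEVI tether, had log2 fold changes of 0.10 and 0.26 (edgeR, adjusted p = 0.556 and 0.145). TGFBRAP1 was called with library size only as the scaling (edgeR, adjusted p = 0.0479).

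The proportions of 3 HOPS genes to their counterparts were compared and were not shown to differ between the groups. The log2 ratio of VPS39 to TGFBRAP1 was -0.02 ± 0.12 for control and 0.05 ± 0.029 for fluoxetine libraries (SD, n = 3 each), with p = 0.4 by the two-sided exact permutation test. That of VPS41 to VPS8 was 1.86 ± 0.142 and 1.92 ± 0.099 (SD, n = 3 each), with p = 0.7 by the same exact test. The log2 ratio of VPS33A to VPS33B was -0.48 ± 0.145 and -0.31 ± 0.134 (SD, n = 3 each), with p = 0.3 by the same exact test. The groups overlapped in all 3 ratios, the adjusted p-values over the 3 ratios lay between 0.6 and 0.7, and the design cannot give a p below 0.1. With 1 library left out at a time, the shift lay between 0.02 and 0.13 for VPS39 to TGFBRAP1 (lowest without control replicate 2, highest without control replicate 3) and between 0.09 and 0.24 for VPS33A to VPS33B (lowest without control replicate 2, highest without fluoxetine replicate 1).

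Further genes of endosome and lysosome fusion were taken from 9 lists that also include the CORVET and CHEVI genes. Of their 56 genes, 54 were tested, 13 rose and 0 fell by edgeR, where RILP alone passed in the lower direction at an unadjusted p under 0.05 and DESeq2 called 0 lower. The share that rose was 24.1%, beside 7.76% of all tested genes, and the median log2 fold change was 0.19. BLOC1S1 and RUBCNL were not tested, with at most 14 and 6 counts per library. Without control replicate 2 or without fluoxetine replicate 1 the number that rose was 6, and without fluoxetine replicate 3 it was 7. In these fits the share of all tested genes called higher was also lower, at 3.06%, 2.53% and 3.78%.

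Upstream of RAB7A, 2 of the 9 tested genes of the switch from RAB5 to RAB7 rose, beside 7.76% of all tested genes. RAB5B, a GTPase of early endosomes, was at 48.0, 49.8 and 51.1 CPM in control cells and at 83.5, 83.9 and 87.6 CPM after fluoxetine, with a log2 change of 0.78 (edgeR, adjusted p = 1.42e-04). Its relatives RAB5A and RAB5C did not pass, with log2 fold changes of 0.17 and -0.14. MON1B, a subunit of the exchange factor that activates RAB7, rose by 0.30 (edgeR, adjusted p = 0.0479), and it kept its call in 1 of the 6 fits that left out a library, the one without control replicate 3. The other subunits of that factor, MON1A, CCZ1, CCZ1B and C18orf8, had log2 fold changes between -0.22 and 0.08, and reads of CCZ1 and CCZ1B, which are near-identical copies, may have been split between them. Of the 3 GTPase-activating proteins that switch RAB7 off, 0 passed at an adjusted p under 0.05 by edgeR and 2, TBC1D5 and TBC1D15, were higher at an unadjusted p under 0.05, beside 15.8% of all tested genes.

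Among the partners that act beside HOPS, OSBPL1A, a cholesterol-sensing RAB7 effector, rose from a mean of 28.1 CPM to 39.97 CPM, by 0.51 on the log2 scale (edgeR, adjusted p = 0.00491). The effector RILP had 1.79 ± 0.182 CPM in control and 1.21 ± 0.158 CPM in fluoxetine libraries (SD, n = 3 each), a log2 change of -0.56 that did not pass (edgeR, adjusted p = 0.164).

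Of the 10 fusion SNAREs and their recycling factors, 2 rose, beside 7.76% of all tested genes. The 2 were STX7, a SNARE of late endosomes (log2 fold change 0.50, edgeR, adjusted p = 0.0106), and NAPA, which helps to take used SNARE complexes apart (0.55, edgeR, adjusted p = 0.0176). The autophagosomal SNARE proteins STX17 and YKT6 and the further SNARE proteins SNAP29 and VAMP8 did not pass, with log2 changes of 0.33, -0.13, 0.05 and 0.03. Among 6 factors of autophagosome and lysosome tethering, EPG5 and UVRAG rose, beside the same 7.76% of all tested genes. EPG5, a RAB7 effector in autophagosome fusion, went from 12.9, 16.2 and 17.0 CPM in control cells to 29.9, 23.1 and 34.9 CPM after fluoxetine, the largest log2 change of these lists at 0.93 (edgeR, adjusted p = 0.00486). UVRAG, which can bind HOPS, rose by 0.57 (edgeR, adjusted p = 0.00778).

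In the retromer, the coat that retrieves receptors from endosomes and binds RAB7A, VPS35 rose by 0.49 and VPS26A by 0.36 (edgeR, adjusted p = 0.00302 and 0.00878), whereas VPS29 and VPS26B had log2 fold changes of -0.12 and -0.07. Of the PIKfyve complex, which makes a lipid of late endosomal membranes, PIKFYVE rose by 0.69 and FIG4 by 0.58 (edgeR, adjusted p = 0.0190 and 0.0099), and VAC14 had a log2 change of 0.34 (edgeR, adjusted p = 0.0801). With 1 library left out at a time, RAB5B, OSBPL1A, EPG5, UVRAG and VPS35 kept their calls in all 6 fits. STX7 and PIKFYVE lost theirs without control replicates 1 and 2 and fluoxetine replicates 1 and 3, NAPA and FIG4 without control replicate 2 and fluoxetine replicates 1 and 3, and VPS26A without control replicate 2 and fluoxetine replicate 1, with edgeR adjusted p-values up to 0.115.

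**Figure D4:**
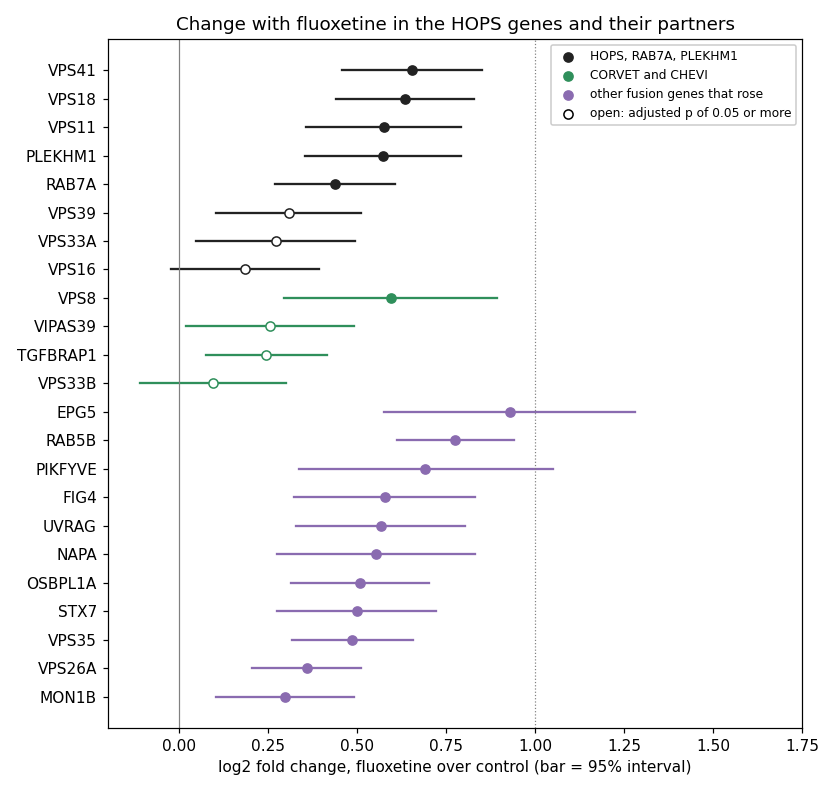
Log2 fold change of fluoxetine over control with its 95% interval, for the 8 members in black, the CORVET and CHEVI genes in green and other listed fusion genes that rose in purple. Filled points passed an adjusted p of 0.05 in edgeR, and the dotted line marks a 2-fold change, which no point reaches (EPG5, at 0.93, is nearest).

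Similar lists of the lysosome were read beside these genes. Of the 8 V-ATPase V1 subunits, the cytosolic part of the lysosomal proton pump, 7 rose with a median log2 change of 0.46, and of 10 lysosomal membrane proteins 10 rose with a median of 0.68. Among the 8 members 5 rose with a median of 0.51. Over all tested genes 7.76% were called higher and the median was 0.03. The lists were chosen with earlier results of these data known. No test was made of a difference between these lists.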

How the data were processed

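RNA sequencing data of H460 cells, 3 control and 3 fluoxetine libraries, were used. The authors deposited raw read counts per gene and library, without normalization, beside the log2 fold changes and p-values of their own comparison, which were not used. The submitters' processing notes name fastp 0.20.0, HISAT2 2.1.0, HTSeq 0.10.0 and DESeq2 1.18.1. Whether counting used the strand, and the genome build, are not given in the sources used here. The coordinates matched GENCODE release 29 (GRCh38) for 96.81% of shared genes and for all 8 members.

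The analysis of the counts used edgeR 4.0.16 in R 4.3.3 (filterByExpr, TMM, glmQLFit and glmQLFTest, no covariate), with p-values adjusted by Benjamini-Hochberg. The steps were tested on simulated data. Libraries of a group differed by more than counting error (chi-square of 3.74 to 25.3 per degree of freedom, beside 23.1 to 53 between groups), and control replicates 1 and 3 (25.3) differed by more than control replicate 2 and fluoxetine replicate 2 (23.1). At the depth reached, 3 counts are worth 0.108 to 0.186 CPM, which covers counting error alone.

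Ratios are differences of log2 CPM (prior count 2), compared by exact permutation in scipy over libraries. Alternatives were DESeq2 1.42.0, limma-voom (limma 3.58.1), other scalings and filters, equal depth, the replicate number as a block, adding PLEKHM1P1 to PLEKHM1, and leaving out each library. The members and lists were chosen with earlier results of these data known, and the ratios between HOPS subunits after their values were seen. Named were all members, the CORVET and CHEVI genes, listed genes past the threshold (except 1, not reported here), overlapping genes and the PLEKHM1 pseudogene, and the 3 genes nearest in profile. Other listed genes are named beside them for contrast and were chosen after their values were seen.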

Additional observations from a re-analysis of the deposited data

How the results depend on the processing

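The log2 fold changes of all 8 members stayed above 0 under each of the 15 alternatives, and RAB7A, VPS18 and VPS41 kept their calls in all of them. The number of members that rose was 5 or 6 under every alternative that kept all libraries and 3 to 6 with 1 library left out at a time, where the share of all tested genes called higher ranged from 2.53% (without fluoxetine replicate 1, which gave 3) to 10.3% (without control replicate 3, which gave 6). The additional call was VPS39, with library size only (adjusted p = 0.0474 from edgeR), with at least 10 counts in every library, with the replicate block (edgeR, adjusted p = 0.00475) and also without control replicate 3. VPS16 and VPS33A were called in 0 of 15 alternatives. The number of listed fusion genes that rose was 12 to 14 under the alternatives that kept all libraries, except 22 with the replicate block, which also called TGFBRAP1 and VIPAS39 (edgeR, adjusted p = 0.0324 and 0.0490), and 6 to 17 when a library was left out, and the number that fell was then 0 to 1. MON1B lost its call with DESeq2 (adjusted p = 0.0725), RLE normalization (0.0619 from edgeR) and no filter on low counts (0.141 from edgeR). The shift of the log2 ratio of VPS41 to VPS8 lay between -0.022 and 0.118 when a library was left out, and its direction turned without control replicate 3 (-0.022) and when fluoxetine replicate 2 was left out (-0.002). Deviations of same-numbered libraries correlated by 0.0297, 0.116 and 0.392 across 15646 genes for replicates 1, 2 and 3. Control replicates 2 and 3 correlated best with the fluoxetine library of their own number, and control replicate 1 did not. Whether same-numbered libraries form pairs is not settled by this, and the main fit did not pair them. With the replicate block, 2231 of all tested genes were higher and 1787 lower, beside 1214 and 833 without it. DESeq2 called 1106 higher and 1140 lower. The cause of these differences was not tested.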

Other observations

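RAB7B, a paralog of RAB7A that was not among the listed genes and was chosen after its values were seen, was scarce but rose. Its level was 0.862, 0.886 and 0.576 CPM in control replicates 1, 2 and 3 and 1.40, 3.15 and 2.68 CPM in the fluoxetine replicates, from a mean count of 29 per library. All fluoxetine libraries lay above all control libraries, with fluoxetine replicate 1 closest to them. It rose by 1.66 on the log2 scale with a standard error of 0.348 (edgeR, adjusted p = 0.0129), and over the 14 alternatives it lay between 1.38 and 1.90 with adjusted p-values of at most 0.0490.

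The genes nearest in profile were found by the root-mean-square difference of centred log2 CPM over the 6 libraries. For the mean profile of the 6 HOPS subunits they were SNX9, RTL6 and SCARA5 (0.0204 to 0.0288), with log2 fold changes between 0.42 and 0.47. RAB7A was nearest to GLRX, MGST3 and CETN2 (0.0161 to 0.0317), and PLEKHM1 to SNX33, ADGRG1 and WDTC1 (0.0371 to 0.0456). These genes were chosen by profile alone, whatever their function, and among them SNX9 and SNX33 encode sorting nexins that bend membranes in endocytosis. The changes of all these genes follow from the choice by profile, and all share the 6 libraries and their depths with the members.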
